A study of Rattus norvegicus with 24 samples.

Results

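The 10 genes described here are Ppid, Cd2bp2, RGD1562532, Cdh7, Csmd1, Nqo2, Atad2b, Slc22a15, Clp1 and Col13a1, each with a region whose sperm methylation was at least 20 percentage points lower in BDE-47 animals than in controls of the same age at both ages studied. They were chosen by that difference, computed from the methylation levels of the 4 groups, so the differences at these regions are given as a description with no test. The authors' list of regions that differ with age holds 5327 regions at 4131 genes. It has 13 regions at the 10 genes: 10 regions, 1 per gene, met the rule and are called the member regions below, and the other 3 all belong to Csmd1. A further 10 regions at other genes met the same rule, so the member regions are 10 of 20. The difference alone does not set the member regions apart from these, some of which had larger drops than some member regions.

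Cauda epididymal sperm was taken from 24 male rats of the Wistar strain, in 4 groups of 6. The BDE-47 groups were sampled at postnatal day (PND) 65 and at PND120 and were born to dams fed BDE-47, a brominated flame retardant, at 0.2 mg per kg body weight per day in corn oil from pregnancy day 8 until PND21. The control groups were sampled at the same days and were born to dams fed the corn oil alone. Dosing was therefore of the mother and ended at PND21, before both sampling days. How long BDE-47 stayed in the offspring cannot be read from these data. From each litter 1 male was taken at each day, so rats of different days can be littermates. Methylation was read by reduced representation bisulfite sequencing, which covers CpG-rich restriction fragments, in CpGs with at least 10 reads. Each group has 1 deposited value per region, so the spread between the 6 animals and the reads behind a region are unknown, and no test over animals could be made. Somatic cells were removed on a density gradient, per the labels. Of the imprinted and germline genes searched to separate sperm from somatic DNA, the list holds Nnat, Trappc9, Tdrd6 and Zfp42. No region at these was at least 5 points lower with BDE-47 at both days, against 2.16% of all regions, or higher, against 4.02%. At Tdrd6 and Trappc9 PND65 controls had 0.328% and 4.58%, where such a drop was not possible. The Nnat and Zfp42 regions lie outside the gene body, and whether any of these regions separates sperm from somatic DNA was not tested. Of the genes imprinted on the paternal allele the list holds 0. Because the list is restricted to regions that change with age, the purity of the sperm cannot be read from it.

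As background, mammalian sperm DNA is densely methylated outside CpG islands, while CpG-rich gene starts are mostly free of methylation. Methylation of gene bodies and of the sequence between genes is laid down before birth in male germ cells and is copied by the maintenance methyltransferase at each division of the spermatogonia. The member genes encode chaperone and RNA-processing proteins (Ppid, Cd2bp2, Clp1), a chromatin ATPase (Atad2b), proteins of the cell surface and matrix (Cdh7, Csmd1, Col13a1), an enzyme and a transporter (Nqo2, Slc22a15), and RGD1562532, to which no name or role was matched.

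The sequence before the gene start is shown for the 3 genes with the largest mean drop that have an entry in the RefSeq promoter table of assembly GRCr8: Ppid (chr2:167025735-167025984, plus strand), Cd2bp2 (chr1:191243892-191244141, minus strand) and Cdh7 (chr13:27197332-27197581, plus strand). Each is the 250 bases before the start, 5′ to 3′ on the gene's strand. Capitals mark CCGG, the site cut by MspI, the enzyme usually used to make reduced representation libraries. These 3 were chosen after their values were seen, and they show how differently placed the CpGs are at the starts of the genes named beside the regions.
Ppid: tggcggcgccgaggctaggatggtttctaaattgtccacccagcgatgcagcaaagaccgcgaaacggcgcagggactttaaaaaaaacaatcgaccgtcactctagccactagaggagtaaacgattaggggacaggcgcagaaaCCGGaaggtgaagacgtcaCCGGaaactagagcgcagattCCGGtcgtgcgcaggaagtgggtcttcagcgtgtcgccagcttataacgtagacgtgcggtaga
Cd2bp2: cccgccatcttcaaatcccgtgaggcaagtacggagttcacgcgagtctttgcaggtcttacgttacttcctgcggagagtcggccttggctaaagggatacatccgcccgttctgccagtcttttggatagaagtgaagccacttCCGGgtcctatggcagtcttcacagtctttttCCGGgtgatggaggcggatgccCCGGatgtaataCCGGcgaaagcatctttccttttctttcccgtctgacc
Cdh7: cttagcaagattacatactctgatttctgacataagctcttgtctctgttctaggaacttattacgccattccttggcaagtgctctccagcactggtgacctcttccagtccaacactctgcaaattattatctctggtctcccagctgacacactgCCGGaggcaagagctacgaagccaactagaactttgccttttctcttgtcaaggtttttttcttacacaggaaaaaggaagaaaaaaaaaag
The Ppid stretch holds 24 CG and 3 CCGG, that of Cd2bp2 17 CG and 4 CCGG, and that of Cdh7 3 CG and 1 CCGG. Of the 7 member genes with an entry, 6 had a CCGG on either strand, which reads the same on both, and the number of CG ran from 3 at Cdh7 to 26 at Slc22a15. Over all 33469 promoters of the table, 46.2% hold CCGG and the median number of CG is 5. The deposited regions are on assembly rn6, and whether they cover these stretches was not tested.

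The member regions were long, and the CpGs read in them lay far apart on average. CpG numbers of regions, here and elsewhere, count the CpGs that were read, not all CpGs of the sequence. Their length ran from 3118 bp at Cd2bp2 to 571802 bp at Nqo2, with a median of 46.2 kb, against a median of 0.155 kb over all 5327 regions. They held a median of 4 CpGs, the same as the whole list. A member region thus had a median of 1 CpG read per 9800 bp, and the whole list 1 per 35.7 bp. For their length the member regions held few: the 1461 listed regions longer than 1 kb had medians of 7 CpGs and 1 per 2257 bp. Of these 1461, 25.5% held 3 or 4 CpGs, against 8 of the 10 member regions. All 10 were longer than 1 kb, as were 27.4% of all regions. By the authors' annotation all 10 overlapped the body of the gene they are named for, as did 79.7% of all regions. A region of this length can also hold neighbouring genes or sequence between genes, and the deposited value does not say which CpGs were read in which group.

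In BDE-47 animals the list has 21 regions at least 20 points lower than controls at PND65, or 0.394% of regions, 55 at PND120, or 1.03%, and 20 at both days, or 0.375%. The opposite pattern was listed at 30 regions, or 0.563%, that were at least 20 points higher in BDE-47 animals at both days. The member regions had BDE-47 levels of 0.513 to 52.6% against control levels of 32.4 to 81.7% at PND65. At PND120 they had BDE-47 levels of 0.298 to 52.4% against control levels of 40.1 to 91.2%. The median difference over the 10 was -37.0 points at PND65 and -44.4 points at PND120, where the medians over all regions were 5.65 and -4.11 points. Member regions and whole list thus differ in sign at PND65, which the rule requires.

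**Figure D1:**
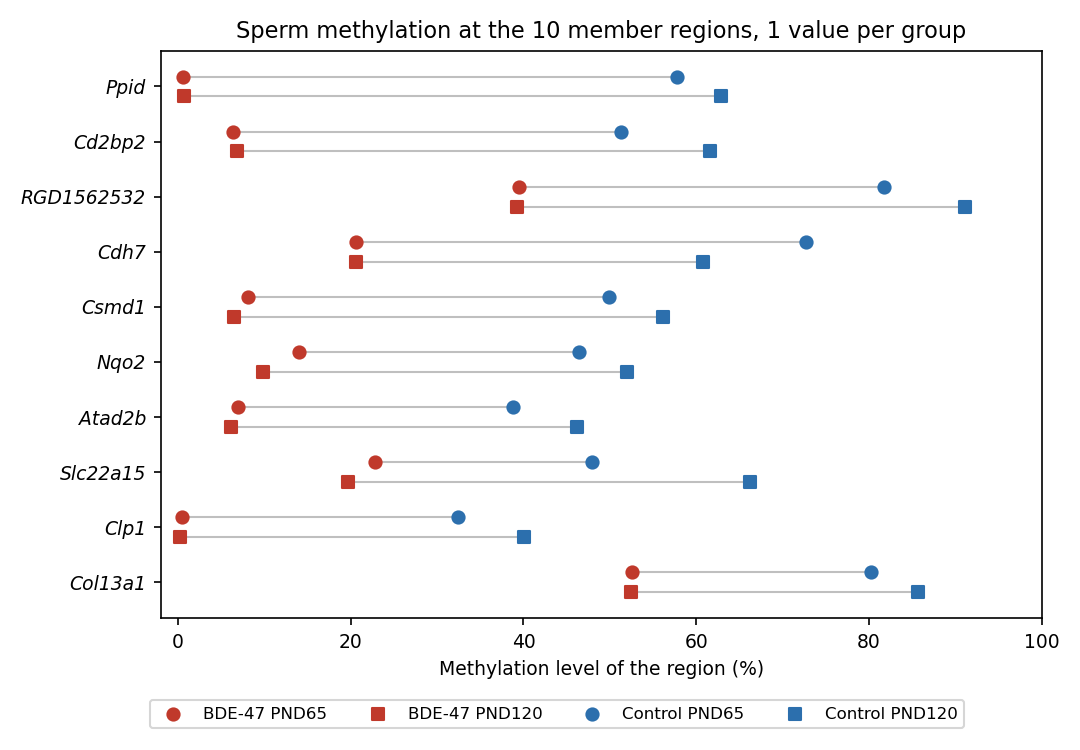
Methylation level in percent (horizontal axis) of the 10 member regions, from the largest mean drop at the top to the smallest. Red points are BDE-47 animals and blue points controls, circles are PND65 and squares PND120, each point is the authors' 1 value for a group with no error known, and grey lines join the groups of the same day. Red points of both days nearly coincide in most rows, while blue points of PND120 lie right of those of PND65 in every row except Cdh7.

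Among the chaperone and RNA-processing genes, Ppid had the largest drop of the list at both days. Ppid encodes cyclophilin 40, a peptidyl-prolyl isomerase that works with the chaperone Hsp90. Its region, chr2:178350770-178389443 on rn6, holds 3 CpGs over 38.7 kb. The level was 0.645% in BDE-47 animals against 57.7% in controls at PND65, a difference of -57.1 points. At PND120 it was 0.746% in BDE-47 animals against 62.9% in controls, a difference of -62.2 points. In BDE-47 animals the level over the few CpGs read was thus very low at both days, at 1.12% and 1.19% of the control level. These CpGs need not stand for the whole region.

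Cd2bp2 encodes a protein that binds the CD2 receptor's tail and is part of the spliceosomal U5 particle. Its region, chr1:198639280-198642398, is the shortest of the member regions and has 3 CpGs. At PND65 the level was 6.35% in BDE-47 animals and 51.2% in controls, a difference of -44.9 points. The PND120 level was 6.80% in BDE-47 animals and 61.6% in controls, a difference of -54.8 points. Both BDE-47 levels were below 10%, as in 58.4% of all regions and 20.3% of those longer than 1 kb, and the gap between days lay in the controls.

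Clp1 encodes a polynucleotide kinase that takes part in forming messenger RNA ends and in splicing transfer RNA. Its region, chr3:72128883-72141113, has 4 CpGs over 12.2 kb. BDE-47 animals had 0.513% and controls 32.4% at PND65. At PND120 BDE-47 animals had 0.298% and controls 40.1%. Control levels were the lowest of the member regions at both days, yet the BDE-47 level was only 1.58% and 0.742% of them, which by ratio puts Clp1 next to Ppid.

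Atad2b encodes an ATPase with a bromodomain, the module that binds acetylated histones. Its region, chr6:28999620-29011726, has 3 CpGs over 12.1 kb. The level was 6.93% in BDE-47 animals against 38.7% in controls at PND65 and 6.11% in BDE-47 animals against 46.2% in controls at PND120. Differences were -31.8 and -40.1 points, close to those of Clp1, -31.9 and -39.8 points.

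Among the genes of the cell surface and matrix, Cdh7, a classical cadherin of type II, was the exception in its course with age. Its region, chr13:31081738-31412942, spans 331.2 kb with 4 CpGs. BDE-47 animals had 20.7% at PND65 and 20.6% at PND120. Controls had 72.7% at PND65 and 60.8% at PND120, an age difference of -11.9 points where the other 9 member regions gained. The difference between the exposure groups was therefore larger at PND65, -52.0 points, than at PND120, -40.2 points, whereas it was larger at PND120 in the other 9. Those 9 followed the course of the list. Controls gained at least 5 points in 99.1% of all regions, and the BDE-47 minus control difference was lower at PND120 than at PND65 in 98.9%.

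Col13a1 encodes a collagen that spans the cell membrane. Its region, chr20:31598272-31674599, holds 17 CpGs, the most of the member regions, over 76.3 kb. At PND65 BDE-47 animals had 52.6% and controls 80.2%. At PND120 the levels were 52.4% in BDE-47 animals and 85.7% in controls. By the mean over both days this was the smallest drop of the 10, -30.5 points, and the highest BDE-47 level.

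RGD1562532, on chr5:122820983-122847818, has 4 CpGs over 26.8 kb. The level was 39.5% in BDE-47 animals against 81.7% in controls at PND65 and 39.3% in BDE-47 animals against 91.2% in controls at PND120. Together with Col13a1 it formed a pair of regions that kept intermediate methylation in BDE-47 animals, where controls were above 80%.

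Nqo2 encodes a quinone reductase that uses dihydronicotinamide riboside. Its region, chr17:31570041-32141843, is the longest of the member regions and has 9 CpGs. BDE-47 animals had 14.1% and controls 46.4% at PND65. At PND120 BDE-47 animals had 9.83% and controls 52.0%. The age difference in BDE-47 animals, -4.22 points, was the largest shift with age in that arm among the 10.

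Slc22a15 encodes a transporter of organic cations and zwitterions. Its region, chr2:204341525-204395181, has 3 CpGs over 53.7 kb. The level was 22.8% in BDE-47 animals against 48.0% in controls at PND65, and 19.7% in BDE-47 animals against 66.3% in controls at PND120. Controls gained 18.3 points with age here, the largest gain of the 10, and the exposure difference was -25.2 points at PND65 and -46.5 points at PND120.

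Across the member regions the arms differed in level more than the ages did. The rule favours this, since it requires at least 20 points between the arms and sets no such floor for the ages. The age difference, PND120 minus PND65, ran from -4.22 to 0.452 points in BDE-47 animals with a median of -0.224, and from -11.9 to 18.3 points in controls with a median of 6.91. An age difference under 5 points in BDE-47 animals was found at all 10, but also at 96.5% of all listed regions, and the list requires an age difference in at least one arm. Stable BDE-47 levels are therefore common to the list. The level itself set the member regions apart by rule: at neither day did any of the 10 lie between the control levels of both days, where 84.4% of all regions lay at PND65 and 84.8% at PND120.

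**Figure D2:**
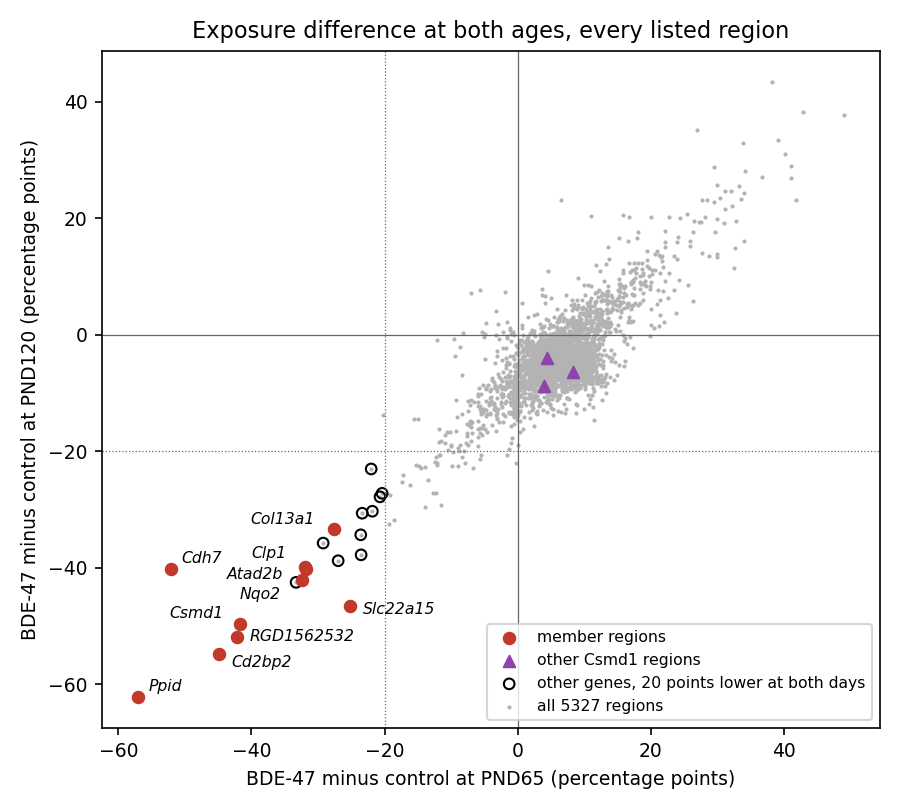
BDE-47 minus control difference in percentage points at PND65 (horizontal axis) and PND120 (vertical axis) for all 5327 regions, with 1 value per group behind each point. Red points are the member regions, open circles the 10 regions of other genes that met the rule, purple triangles the other Csmd1 regions and dotted lines the threshold of -20 points; most grey points lie right of 0 and below 0, and the member regions lie at the lower left end.

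Csmd1 is the one gene with regions of both kinds. It encodes a large membrane protein of CUB and sushi domains that regulates complement. The authors' distance puts the first of its 4 regions 187 bp before the gene, which is on the plus strand, and positions are counted here from that gene start on rn6. The 3 short regions surround the start, at -326 to -187, 142 to 434 and 469 to 803 bp, with 6, 5 and 4 CpGs. The member region begins 1350 bp after them, at 2153 bp, and runs to 121548 bp (chr16:77154977-77274372) with 4 CpGs.

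At the first short region BDE-47 animals had 9.00% and controls 0.725% at PND65, and BDE-47 animals had 6.27% and controls 12.7% at PND120. At the second, the PND65 level was 8.31% in BDE-47 animals and 4.35% in controls, and the PND120 level 7.73% in BDE-47 animals and 16.5% in controls. At the third it was 4.89% in BDE-47 animals and 0.569% in controls at PND65, and 5.29% in BDE-47 animals and 9.23% in controls at PND120. All 3 were thus higher with BDE-47 at PND65 and lower at PND120, the course of 84.2% of the whole list. In the member region the level was 8.17% in BDE-47 animals against 49.8% in controls at PND65, and 6.54% in BDE-47 animals against 56.2% in controls at PND120, differences of -41.7 and -49.6 points. BDE-47 levels were below 10% at both days in all 4 regions, as in 58.4% of all regions and 20.3% of those longer than 1 kb. The 3 short regions around the gene start and the long region further into the gene differed in controls and hardly in BDE-47 animals. The rule favours this contrast, since it required the control level of the long region to be at least 20 points above its BDE-47 level.

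**Figure D3:**
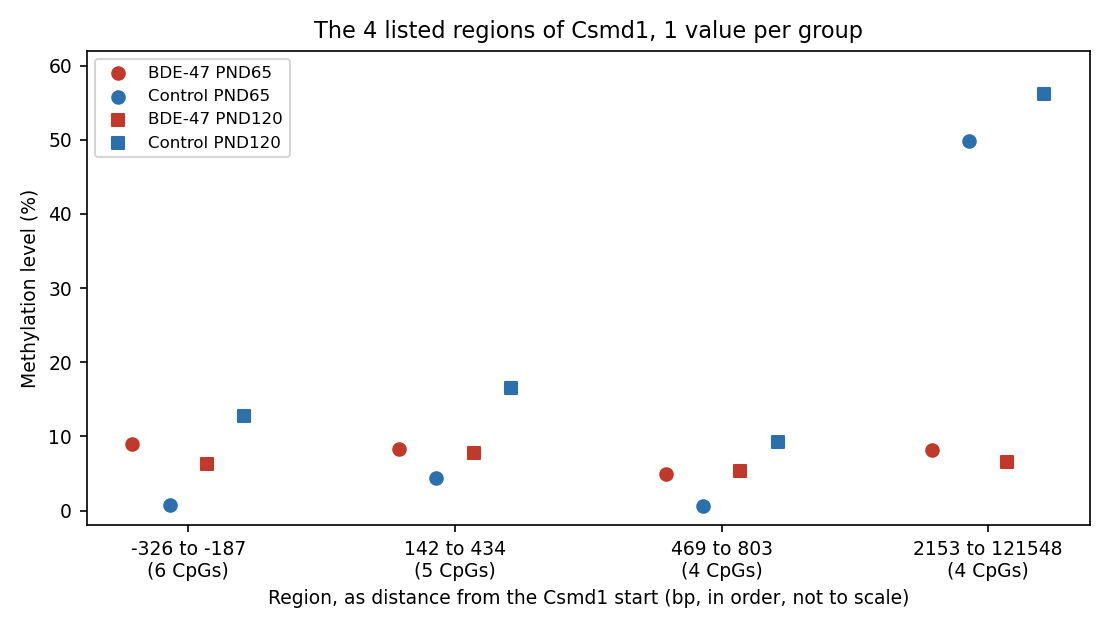
Methylation level in percent (vertical axis) of the 4 listed regions of Csmd1, in order along the gene and labelled by their distance from the gene start in bp; spacing is not to scale. Red is BDE-47 and blue control, circles are PND65 and squares PND120, with 1 value per group and no error known; red points stay below 10% in all 4 regions, and blue points reach 49.8% and 56.2% in the last.

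Within 1 Mb of a member region the list holds 62 others, 44 of them at most 1 kb long, and none overlaps a member region. Of these 62, 0 were at least 20 points lower in BDE-47 animals at both days, where the whole list has 0.375%. The control level at PND65 had a median of 0.888% in the 62 and was at least 20% in 10, so in the others a drop of 20 points at PND65 was not possible, and at the share of the whole list 62 regions need not hold any. In those 10 the differences ran from -10.0 to 15.9 points at PND65 and from -19.1 to 7.09 points at PND120. Over all 62 the differences ran from -10.0 to 22.5 points at PND65 with a median of 5.86, and from -22.0 to 7.09 points at PND120 with a median of -4.34, close to the medians of the whole list. At least 5 points lower at both days were 2 of them, against 2.16% of the whole list. One was at Zfp764, a zinc-finger gene 189.3 kb from the Cd2bp2 region, with differences of -10.0 and -19.1 points. The other was at the tubulin gene Tubb2a, 77.0 kb from the Nqo2 region, with -5.52 and -10.1 points.

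Short regions that were almost unmethylated in PND65 controls, and so could not be lower by 20 points at that day, lay close to some member regions. At Ripk1, a kinase of cell death signalling, a region of 3 CpGs ends 234 bp before the Nqo2 region, and its level was 6.37% in BDE-47 animals against 0.0996% in controls at PND65 and 6.26% in BDE-47 animals against 9.57% in controls at PND120. A region of 3 CpGs at Ubxn2a lies 1686 bp from the Atad2b region, with 3.71% in BDE-47 animals against 0.638% in controls at PND65 and 4.01% in BDE-47 animals against 8.37% in controls at PND120. In GRCr8 Ubxn2a is the next protein-coding gene to Atad2b, and Ripk1 the next but one to Nqo2. A region at the histone gene H2afy2 lies further off, 195.8 kb from the Col13a1 region. It was listed at 0 in BDE-47 animals and at 22.0% in controls at PND120, but at 0.493% in BDE-47 animals and 0.761% in controls at PND65. No listed region lay within 1 Mb of the Cdh7 region.

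**Figure D4:**
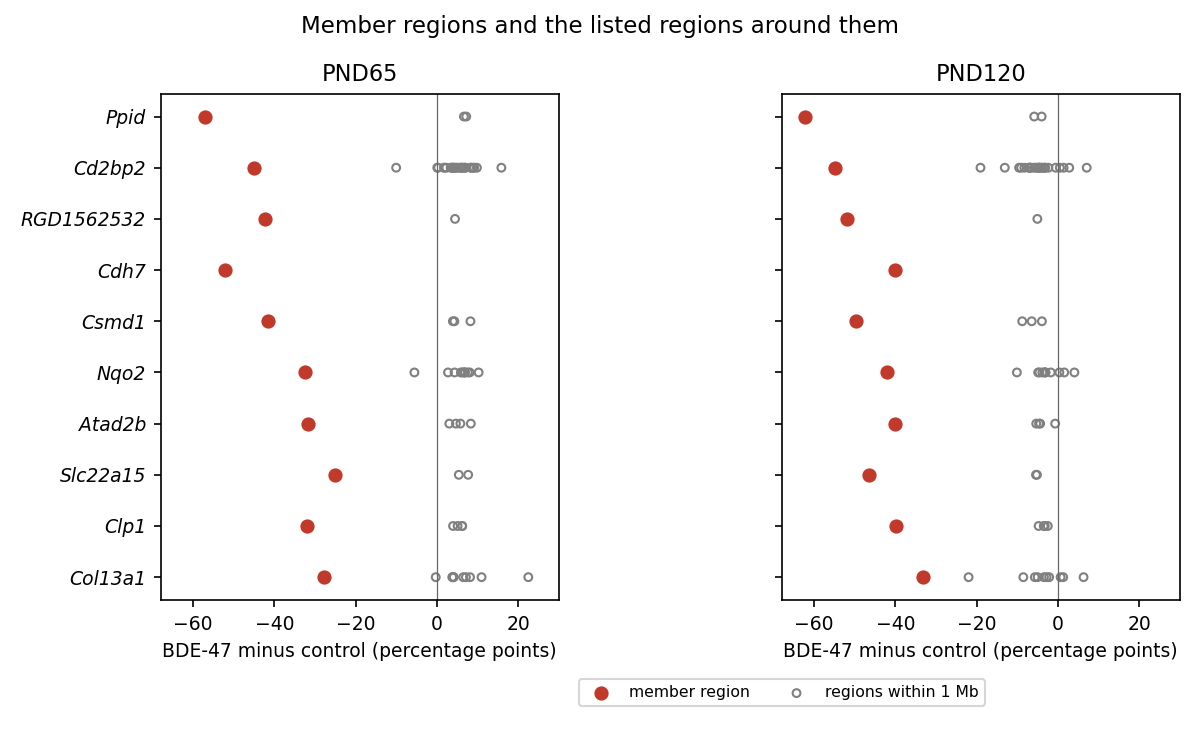
BDE-47 minus control difference in percentage points (horizontal axis) at PND65 and PND120 for each member region (red) and for the 62 other listed regions within 1 Mb of one (grey circles), by member gene. Member regions lie between -57.1 and -25.2 points at PND65, where the regions around them lie between -10.0 and 22.5 points.

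Length went together with the pattern over the whole list. Of 1461 regions longer than 1 kb, 20 were at least 20 points lower with BDE-47 at both days (1.37%) and 21 at least 20 points higher (1.44%). Of 3866 regions of at most 1 kb, 0 were lower by that much (0%) and 9 higher (0.233%). Control level moved with length: a PND65 control level of at least 30% was found in 542 of the long regions and 21 of the short ones. Among those 542, 18 were lower by the rule (3.32%) and 13 higher (2.4%), and among the 21, 0 were either. The part of length, of CpG spacing and of control level in the differences was not tested.

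**Figure D5:**
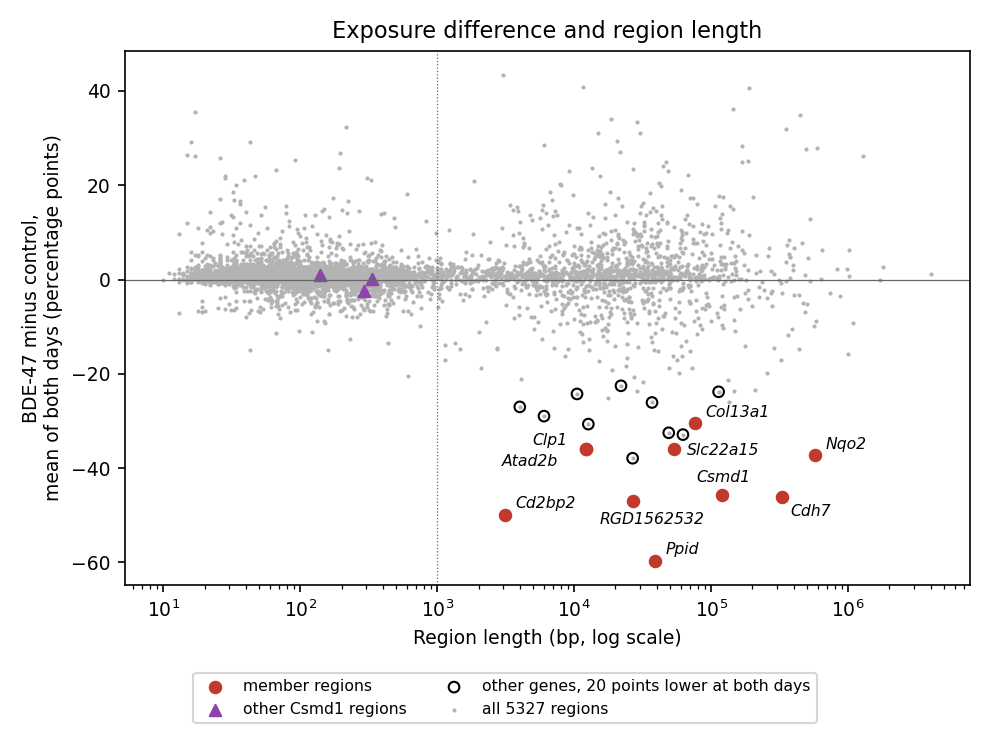
Mean over both days of the BDE-47 minus control difference in percentage points (vertical axis) against region length in bp (horizontal axis, log scale) for all 5327 regions, with the dotted line at 1 kb. Member regions (red) and the 10 regions of other genes that met the rule (open circles) all lie right of 1 kb, and grey points spread further from 0 on that side in both directions.

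The other 10 regions that met the rule were all longer than 1 kb too, at 4.00 to 113.2 kb, where the medians were 46.2 kb for the member regions and 24.3 kb for these. They held 3 to 11 CpGs, and 8 of the 10 overlapped a gene body. Rwdd3 and Syngr4 came closest to Ppid and Clp1, with BDE-47 levels of 0.267% and 0.802% at PND65, both listed at 0 at PND120, against control levels of 23.8% and 21.5% at PND65 and 37.8% and 27.8% at PND120. At LOC100364769 the differences were -33.3 and -42.5 points, at LOC103691207 -29.2 and -35.8 points, and at LOC100912024 -27.0 and -38.8 points. They were -23.6 and -34.3 points at Dus3l, which encodes a dihydrouridine synthase, and -23.4 and -30.6 points at Lonrf2. Fam193b, with -22.0 and -23.0 points, was the one of the 10 where BDE-47 animals gained over 5 points with age, 8.05 points.

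Around the threshold the values were continuous. Just inside it lay Fcho1 with -21.8 points at PND65 and -30.3 at PND120, Syngr4 with -20.7 and -27.8, and Necab1 with -20.4 and -27.2. Just outside lay Klf8 with -19.9 and -27.5 points, Exosc3 with -19.7 and -27.4, LOC685950 with -19.4 and -32.6, LOC100911458 with -19.2 and -27.4, and Chmp4c with -18.6 and -31.8. PND65 decided in all 8, since their difference there was the smaller one. The BDE-47 minus control difference was lower at PND120 than at PND65 in 98.9% of all regions. At the far end of the opposite pattern lay Fgf16 with 42.9 and 38.2 points, Syt7 with 38.1 and 43.4, and Fem1a with 49.0 and 37.7.

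The 9 lists of related genes, from cyclophilins, cadherins and U5 proteins to collagens and Slc22 transporters, had 38 regions at 28 other genes. Of these regions 0 were at least 5 points lower in BDE-47 animals at both days, against 2.16% of all regions, but the control level at PND65 was under 5% in 28 of the 38, where such a drop was not possible. At the same time 2 of the 38 were at least 5 points higher at both days, against 4.02%. Their median differences were 6.05 points at PND65 and -4.34 points at PND120, against 5.65 and -4.11 over the whole list. The 2 higher regions were at Ppia, which encodes cyclophilin A, with 15.3 and 7.31 points over 32.1 kb, and at the acetyltransferase gene Ep300, with 21.0 and 7.67 points over 40 bp. Among cyclophilins, regions were listed at 4 genes besides Ppid. At Ppig the level was 26.1% in BDE-47 animals against 26.4% in controls at PND65 and 25.9% in BDE-47 animals against 35.4% in controls at PND120.

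In other families, Cdh11 was, of the 13 type II and related cadherins searched, the one listed besides Cdh7, with differences of 5.82 and -7.08 points. Of the 14 genes of CUB and sushi proteins and complement regulators, Sez6l was the one listed besides Csmd1, with 8.35 and -3.56 points. The antioxidant list had 5 regions at Txnrd1, Prdx1, Nfe2l2 and Gclm, with medians of 6.07 and -2.69 points. RNA end processing had 6 regions at Papola, Cpsf7, Sympk and Fip1l1, with medians of 7.44 and -5.90 points, and bromodomain genes 9 regions with medians of 6.02 and -5.39. Collagens had 8 regions with medians of 4.01 and -5.18 points, among them Col5a3 with -2.38 and -10.6 points, and Slc22 transporters 4 regions with 6.48 and -2.41. Of the 11 U5 and tri-snRNP genes searched, Cd2bp2 alone was listed.

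The authors' separate list of regions that differ between exposure groups did not include the member regions. It holds 30 regions, 21 at PND65 and 9 at PND120, of which 0 overlapped a member region, 0 lay within 1 Mb of one and 0 named a member gene. The nearest lay 12.7 Mb from the Atad2b region. All 30 were shorter than 1 kb, with a median of 138 bp and a longest of 939 bp. Of the 30, 11 changed by at least 20 points in either direction in the authors' deposited table. Why regions with such group differences are not in that list was not tested.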

How the data were processed

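Per the series' design text and the submitters' processing notes, Bismark 0.16.1 with Bowtie2 2.2.9 aligned the bisulfite reads to rn6, duplicates were removed with nudup 2.2, regions were called with MethPipe and genes were added with closest-features 2.4.25. The regions have q under 0.05, 3 or more CpGs and CpGs with at least 10 reads, per the file headers. In the age list the authors give methylation as a fraction, with a single value for a group, and age differences in points, a score that equalled 100 times the difference of the fractions within 1.42e-14. The deposited exposure list gives a signed change, also a score in points, whose direction is not stated. Its header names another species than the labels. Columns with values of single animals numbered 0, so there is no SD, depth or p-value.

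Fractions were multiplied by 100. Differences are BDE-47 minus control, or PND120 minus PND65, in percentage points. Region length is end minus start, and whether starts count from 0 or 1 is not stated. Symbols of 9 of the 10 members matched RefSeq names of GRCr8, used for names, gene order and promoter sequence. Named genes were all members, regions at the threshold or meeting the rule, regions within 1 Mb and relatives from fixed lists, of which the text names those that carry a result. Members and lists were chosen with earlier results of these data known. Counting was tested on simulated data. Analyses used Python 3.11.15, pandas 2.3.3, numpy 2.4.6 and matplotlib 3.10.9. Alternatives were other thresholds, CpG minimums, lengths and scales. An alternative coverage minimum could not be tried, since the depth is unknown.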

Additional observations from a re-analysis of the deposited data

How the results depend on the processing

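The median exposure difference of -37.0 points at PND65 and -44.4 points at PND120 over the member regions was -31.9 and -40.2 over all 13 regions of the member genes, and -30.005 and -37.7 in the 2 member regions with at least 5 CpGs. Over all listed regions that met the rule, members or not, it was -23.5 and -33.3 points with a threshold of 15 points, -28.5 and -39.3 with 20 points and -32.3 and -42.2 with 25 points. The count of 20 lower regions among 5327 was 29 at 15 points and 13 at 25 points. It was 0 among the 3866 regions of at most 1 kb. With at least 5 CpGs it was 7 of 2266 regions, and with at least 10 CpGs 2 of 564. The count of 30 higher regions among 5327 was 52 at 15 points and 14 at 25 points. It was 9 among the 3866 regions of at most 1 kb. With at least 5 CpGs it was 14 of 2266 regions, and with at least 10 CpGs 4 of 564. The change with age in BDE-47 animals had a median of -0.232 points over all 13 regions and -2.18 with at least 5 CpGs, against -0.224, and in controls 7.65 and 5.53 points, against 6.91. By log2 ratio or by log odds, 3 of the 5 regions with the largest drop in points were among the first 5, and Clp1 ranked 2 in both, against 9 in points. No member region was at most 1 kb long, so that alternative gives no median. A CpG minimum or a length limit leaves fewer regions, but the length limit still kept 3866 of 5327. In only 21 of these short regions were PND65 controls methylated at 30% or more. The cause of the shifts was not tested. No paired analysis was possible because each group has 1 value per region. Depth is unknown, so the precision of levels near 0 or over few CpGs cannot be given.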
